A study of Drosophila melanogaster with 3 samples.

Results

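The regions described here are 695 autosomal places where a GFP-tagged CG8319 protein was recovered just upstream of a promoter with no annotated promoter of the opposite strand beside it. They were chosen from the 3578 autosomal peaks of the authors' thresholded list of 4410 peaks (the optimal list), and make up 19.4% of the autosomal peaks. A peak was kept when its summit, the position of highest signal inside it, lay upstream of the transcription start site nearest to it in the annotation, at most 500 bp away, with no start site of a gene on the opposite strand within 500 bp of the summit. The choice used position alone, not peak strength or sequence. The 695 peaks, called one-sided promoter peaks or members below, lay next to 662 start sites of 641 genes.

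The measurement was chromatin immunoprecipitation with sequencing (ChIP-seq) in whole Drosophila melanogaster prepupae, with males and females pooled and the age in hours not known. All animals were of the transgenic line CG8319-GFP, in which GFP is fused to the C terminus of CG8319, and chromatin was pulled down with an antibody against GFP. The 3 samples form 1 group and are labelled biological replicates 1, 2 and 3. No untagged animals were analysed here, so nothing below compares groups of samples, and whole animals mix all tissues of the prepupa.

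CG8319 is annotated in RefSeq as an uncharacterized protein. In flies many promoters drive transcription in 1 direction, while others sit between a pair of genes that start back to back. The core promoter around a start site can hold a TATA box, bound by the TATA-binding protein, or an initiator at the start itself, and the sequence just upstream can hold elements such as the GAGA repeat, bound by GAGA factor. The prepupal stage follows a pulse of the steroid hormone ecdysone, which switches on a cascade of transcription factor genes.

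The strongest member lay 88 bp upstream of CG14100 (FBgn0036889, chr3L:19590430-19590800, intergenic). Its signal was 1792 in the optimal list and 356, 863 and 576 in replicates 1, 2 and 3. Signal is the value that the authors' peak caller gave each peak. The scale of the signal differs between the lists, so values are comparable only within a list, and no mean over replicates is given for a single peak.

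The sequences below show what the strongest members look like. They are the summit with 50 bp to either side for members of the highest signal, leaving out the right arm of chromosome 2, whose window meets no annotated UTR, followed by the weakest such members, MED26 and PGRP-LB. Each is named by the gene of the nearest start site and printed 5′ to 3′ on that gene's strand, from the RefSeq genome of the dm6 assembly. Capitals mark the 6-base word TTAAAA or its reverse complement TTTTAA, the word with the largest excess at member summits. The name is followed by the position of the window and the strand.
CG14100, chr3L:19590562-19590662, minus strand: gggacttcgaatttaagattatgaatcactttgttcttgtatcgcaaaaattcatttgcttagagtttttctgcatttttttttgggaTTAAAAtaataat
larp, chr3R:28326546-28326646, minus strand: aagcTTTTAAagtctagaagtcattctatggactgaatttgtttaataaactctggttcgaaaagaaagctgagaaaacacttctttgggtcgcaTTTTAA
Hsp27, chr3L:9383859-9383959, plus strand: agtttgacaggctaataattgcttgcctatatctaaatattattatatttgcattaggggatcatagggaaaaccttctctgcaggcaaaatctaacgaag
CR31044, chr3R:29214386-29214486, plus strand: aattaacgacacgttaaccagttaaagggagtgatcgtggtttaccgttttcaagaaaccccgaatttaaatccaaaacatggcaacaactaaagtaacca
CG13921, chr3L:1746723-1746823, plus strand: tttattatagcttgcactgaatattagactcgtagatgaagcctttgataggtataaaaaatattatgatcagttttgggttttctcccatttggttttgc
CG31145, chr3R:23669795-23669895, minus strand: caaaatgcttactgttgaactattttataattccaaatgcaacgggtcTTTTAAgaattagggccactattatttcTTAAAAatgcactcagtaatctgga
Hpf1, chr3R:5791703-5791803, plus strand: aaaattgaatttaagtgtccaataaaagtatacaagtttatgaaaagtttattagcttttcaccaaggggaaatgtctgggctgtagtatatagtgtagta
CG18549, chr3R:12449138-12449238, plus strand: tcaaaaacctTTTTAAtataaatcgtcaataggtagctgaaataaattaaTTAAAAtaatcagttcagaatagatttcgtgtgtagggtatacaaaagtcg
Trp1, chr2L:10010169-10010269, plus strand: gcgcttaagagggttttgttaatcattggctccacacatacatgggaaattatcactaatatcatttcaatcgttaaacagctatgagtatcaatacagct
Doc3, chr3L:9004848-9004948, plus strand: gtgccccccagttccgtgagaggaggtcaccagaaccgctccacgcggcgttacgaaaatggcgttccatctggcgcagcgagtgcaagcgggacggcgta
MED26, chr4:787708-787808, minus strand: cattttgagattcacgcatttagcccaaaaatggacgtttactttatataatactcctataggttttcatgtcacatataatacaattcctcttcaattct
PGRP-LB, chr3R:11454577-11454677, minus strand: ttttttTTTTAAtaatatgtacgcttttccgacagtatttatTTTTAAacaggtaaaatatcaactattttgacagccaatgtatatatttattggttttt

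Of the 10 windows of high signal shown, 4 hold the word, and 9 are over 60% A or T. The exception is Doc3, with 35.6%. The weak PGRP-LB window holds the word as well, and is 78.2% A or T.

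Members of high signal stood beside genes of several kinds, and those named here were each found among the top peaks in every replicate. Genes for proteins of translation included mRpL41, a mitochondrial ribosomal protein gene, at 1263 in the optimal list, and at 276, 591 and 399.4 in replicates 1, 2 and 3 (FBgn0034001, chr2R:15217563-15217937, intergenic, 130 bp upstream). beta-PheRS, which encodes a subunit of a phenylalanyl-tRNA synthetase, had 717 in the optimal list, and 137, 352 and 221 by replicate, with its pooled summit 14 bp upstream of the start and that of replicate 1 15 bp downstream (chr3R:24252568-24252845). larp encodes an RNA-binding protein, and its member had 1212 in the optimal list and 306, 598 and 298.5 by replicate (FBgn0261618, chr3R:28326405-28326804). It lay in an intron, 332 bp upstream of an internal start site of the gene.

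Hsp27, a small heat shock protein gene, had 1196 in the optimal list and 273, 569 and 356 by replicate (FBgn0001226, chr3L:9383726-9384096, intergenic, 154 bp upstream). The kinase genes gish, a casein kinase I, and for, a cGMP-dependent protein kinase, had 969 and 763, both in introns. The transcription factor genes Sox14, which ecdysone induces, and Doc3, a T-box gene of the heart and amnioserosa, had 798 and 789. In these members replicate 2 gave the highest value and replicates 1 and 3 lay below it. The median over all members ran likewise, at 43.9, 81.7 and 48.7 in replicates 1, 2 and 3. Since the scale differs between the lists, this order is not read as a difference in binding. The rest of the 25 strongest lay beside CG1888, CG13921, CG31145, Hpf1 (a cofactor of poly(ADP-ribose) polymerase), scb (an integrin), CG18549, Trp1, Fkbp14, Lpin (a phosphatidate phosphatase), Tina-1, CG13501, nebu, MFS18, Rtnl1 and the long non-coding RNAs CR31044 and CR43626, with signals from 633 to 1169.

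Over all members the signal ran from 87.4 to 1792, with a median of 164.7 and quartiles of 114 and 274.5. Of the 100 strongest peaks in the optimal list, chromosome X included, 27 were members, as were 695 of all 4410. Among autosomal peaks sorted into 5 equal groups by signal (quintiles), members made up 28.6% of the strongest quintile and then 19.3%, 18.99%, 15.4% and 14.8% of the next ones. Among each replicate's own 4410 strongest peaks, autosomal part, the share meeting the same rule was 21.6%, 19.6% and 19.8% in replicates 1, 2 and 3 (20.3% ± 1.08, SD, n = 3).

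Members were stronger than the other 2883 autosomal peaks in each replicate. The median signal in the optimal list was 164.7 in members and 139.6 in the others. The difference of median log2 signal was 0.27, 0.23 and 0.25 in replicates 1, 2 and 3 (mean 0.25 ± 0.02, SD, n = 3, higher in 3 of 3). In all log2 differences a peak that overlapped no peak of a replicate list took the lowest signal of that list (6.19, 12.2 and 7.56), and 694, 692 and 681 of the 695 members had a signal of their own. Over 3 replicates a two-sided exact sign-flip permutation test cannot go below p = 0.25, the value it gave. Against the 2162 peaks more than 500 bp from any start site the difference was 0.30 ± 0.02, and against the 301 peaks downstream of the nearest start it was 0.20 ± 0.07 (SD, n = 3 each, exact permutation p = 0.25 for both, higher in 3 of 3).

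Against the 420 peaks upstream of divergent gene pairs no difference larger than the replicate spread was found. The median signal was 164.7 in members and 158.5 at divergent promoters, and the difference of median log2 signal was 0.15, 0.07 and -0.09 in the 3 replicates (0.04 ± 0.12, SD, n = 3, exact sign-flip permutation p = 0.75, two-sided). Its sign turned in replicate 3, without replicate 1 (-0.01), with a limit of 300 bp in place of 500 (-0.09) and in the stronger 50% of the peaks (-0.0031).

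Of the 695 members, 510 (73.4%, 95% Wilson interval 70.0 to 76.5) overlapped the 4410 strongest peaks of all 3 replicates, against 66.1% of all autosomal optimal peaks. A further 123 did so in 2 replicates, 60 in 1 and 2 in none, the members of bcd and MED26. The share was 68.8% at divergent promoters, 63.5% downstream of starts and 63.6% at distal peaks. The share followed signal: in the strongest quintile of autosomal peaks 97.6% of members and 99.6% of other peaks were found in all 3, and in the weakest quintile 16.04% of members and 12.95% of others. Spearman's rho of signal across members was 0.808 between replicates 1 and 2 (n = 691), 0.789 between 1 and 3 (n = 680) and 0.838 between 2 and 3 (n = 678), a description of agreement only.

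Member peaks were not always separate places, since 60 of them overlapped another member. Such a pair can rest on a single peak in a replicate list. Without those 60 members the share found in all 3 replicates was 71.02%.

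Some genes carried several members. A single member lay beside 595 genes, 2 members beside 40 genes and 3 or more beside 6 genes. Rtnl1, which encodes a reticulon of the endoplasmic reticulum, had 5 member peaks at 4 start sites along its introns, with signals of 662, 105.3, 149.7, 105.1 and 295 from left to right on 2L. The peaks of 149.7 and 105.1 overlap and share their replicate peaks. spi, which encodes an EGF receptor ligand, had 3 members of 226, 459 and 132, and the last 2 overlap. The others with 3 members were CAP, MEP-1, Mhcl and SNF4Agamma.

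The summits of members lay a median of 197 bp upstream of the start site, with quartiles of 127 and 309.5 bp. The replicates' own summits for these peaks gave medians of 196.5, 200 and 201 bp (199.2 ± 2.36 bp, SD, n = 3). From 100 to under 200 bp upstream there were 228 summits (32.8%). Divergent promoter peaks had a median distance of 105 bp. A divergent peak has a start on both strands within 500 bp of its summit, the opposite-strand one on either side, and its distance is that to the nearer of them, so the distances of the 2 classes are set side by side and not tested. Seen one by one, 649 members (93.4%) had their summit upstream of the start in every replicate, and 388 (55.8%) had all 3 replicate summits within 50 bp of the pooled summit.

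**Figure D1:**
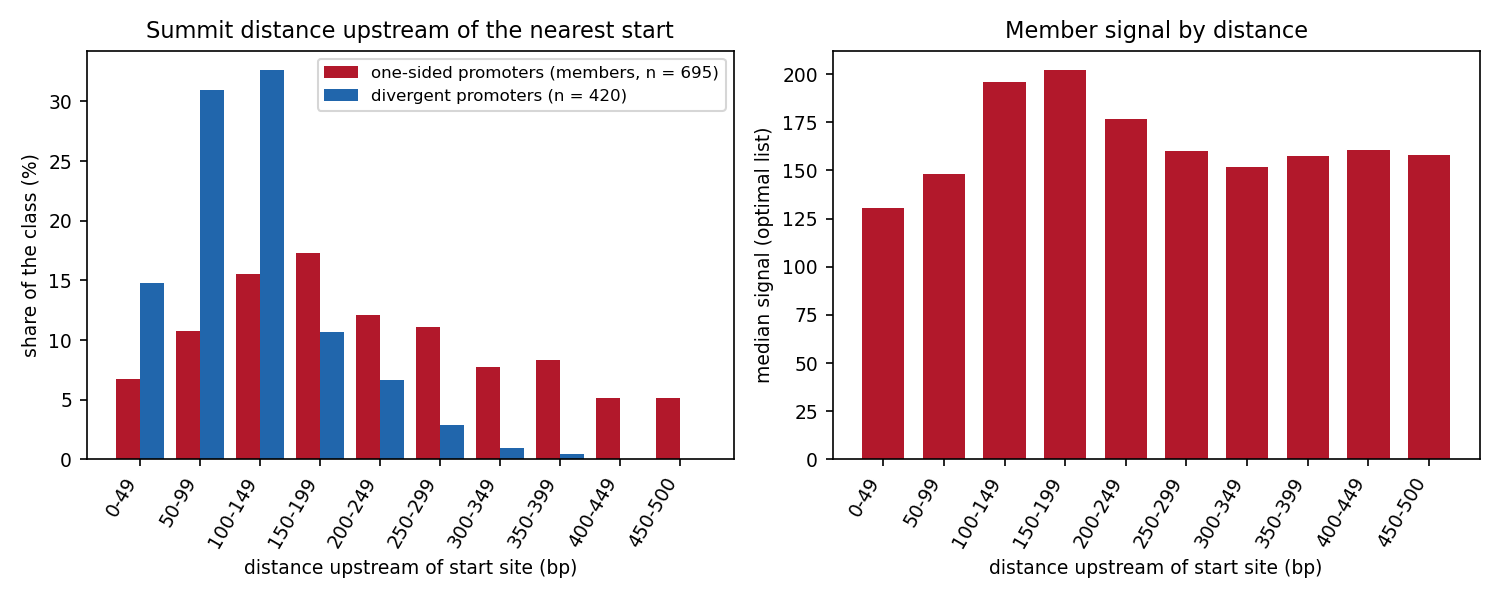
Left, share of one-sided promoter peaks (red, 695 members) and divergent promoter peaks (blue, 420) by distance from the summit to the nearest start site, in 50 bp bins. Right, median optimal-list signal of the members in each bin. Members spread over the whole 500 bp with the most from 100 to under 200 bp, and their median signal is 131 in the bin nearest the start and 202 in the bin that starts at 150 bp.

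Signal was lowest close to the start. The 122 members less than 100 bp from it had a median of 135, and the 573 members farther away 172. The difference of median log2 signal was -0.27, -0.45 and -0.36 in replicates 1, 2 and 3 (mean -0.36 ± 0.09, SD, n = 3, exact sign-flip permutation p = 0.25, the smallest possible, two-sided). Of the near members 61.5% were found in all 3 replicates, and of the far members 75.9%. The windows of the near members were 59.4% A or T and those of the far members 67.6%, and the part of that difference in the signal was not tested. Over the full range the rank correlation of signal with distance was near 0 (Spearman's rho 0.005 across 695 members).

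The rule takes summits upstream of their nearest start, and most of them lay outside exons. Intergenic sequence held 375 (54.0%), introns 264 (37.99%), 5′ UTRs 23, 3′ UTRs 16, exons of non-coding RNAs 15 and coding exons 2. The intergenic share was 37.9% over all autosomal peaks. By class it was 75.2% at divergent promoters, 1.33% downstream of starts and 30.6% at distal peaks. Of the intergenic members, 250 faced a neighbour on the same strand, so that the peak lay between the end of one gene and the start of the next, at a median of 530.5 bp from that neighbour. For the 125 with a neighbour on the opposite strand the median was 1578 bp. Another 82 lay inside a different gene, 51 of them in one on the opposite strand.

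Members lay at first and at internal promoters. The share of internal starts among all one-sided start sites is not given here, so the counts describe the members only. The start site was the first of its gene for 457 members (65.8%) and an internal one, inside the same gene, for 238. The internal members had a median signal of 170.0 and the first ones 162.7, and the difference of median log2 signal was 0.19, 0.10 and 0.07 in the replicates (0.12 ± 0.06, SD, n = 3, exact sign-flip permutation p = 0.25, the smallest possible, two-sided). Found in all 3 replicates were 192 of the internal members (80.7%) and 318 of the first ones (69.6%). Their windows were 65.7% and 66.4% A or T. By gene type, 635 members lay beside protein-coding genes, 58 beside non-coding RNA genes, and 1 each beside a tRNA and a snoRNA gene.

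The chromosome arms were alike in the share of peaks that were members. It was 19.7% on 2L, 20.3% on 2R, 19.3% on 3L and 18.4% on 3R. On the small chromosome 4, 6 of 13 peaks were members. Per start site with no opposite-strand start nearby, 4.23% had a member on 2L, 3.80% on 2R, 5.30% on 3L, 4.38% on 3R and 4.08% on 4.

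Members were rich in A and T at the summit. With 50 bp taken to either side of the summit, 66.2% of bases were A or T. The share was 56.1% in windows of equal width centred 300 bp to either side (flanks), and 57.8% over the autosomal arms. As the median summit lay 197 bp upstream, the flank on the gene side was centred past the start for most members. This holds for all shares in flanks of members below. With each replicate's own summits the rise was 9.10, 10.3 and 10.4 percentage points (9.92 ± 0.71, SD, n = 3, exact sign-flip permutation p = 0.25, the smallest possible, two-sided). Because the replicates read the same genome, this spread measures only how far their summits shift. The content ranged from 33.7% to 87.1% between members, and 648 of 695 were over 50%.

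The other classes gave rises of 13.6 ± 1.16 points at divergent promoters, 6.43 ± 0.10 downstream of starts and 12.7 ± 0.43 at distal peaks (SD, n = 3 each). Around member summits the profile was uneven. Content was highest in the bin from 30 to 21 bp on the side away from the start (68.0%). More than 400 bp from the summit it was 58.9% on the side away from the start and 54.2% on the side of the gene. Promoters without a peak were A/T rich upstream too. From 200 bp to just over 100 bp before the start, content was 62.8% at the 605 protein-coding start sites with a member and 61.5% at 10752 one-sided protein-coding start sites with no optimal summit within 500 bp. Nearer the start the member sites were lower in A/T, at 52.2% from 100 bp before to 29 bp after it, against 57.3% at the sites without a peak.

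**Figure D2:**
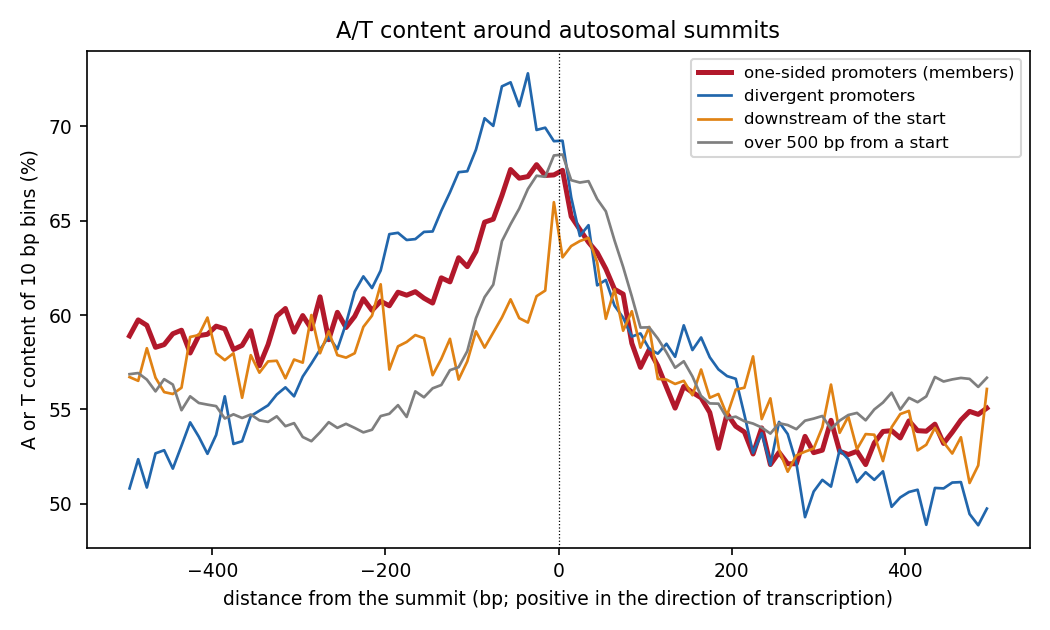
Mean A or T content in 10 bp bins by distance from the summit, in the direction of transcription of the nearest gene, for one-sided promoter peaks (red, thick), divergent promoter peaks (blue), peaks downstream of the start (orange) and peaks over 500 bp from a start (grey). The member curve reaches 68.0% just before the summit and stays higher on the upstream side, at 58.9% over the outermost 100 bp, than on the gene side, at 54.2%.

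The word TTAAAA had the largest excess at member summits among the 2080 words of 6 bases (both strands merged), with other A/T words close behind. It lay within 50 bp of the summit in 258 members (37.1%), and in 14.3% of the flank windows. With the replicates' own summits the difference was 21.5 ± 0.70 points (SD, n = 3). TTAAAA was picked for its excess in these same windows, so a positive difference was set by that choice. Because the replicates read the same genome, the spread measures only how far their summits shift. Ranked by summit minus flank share TTAAAA came first among the 307 members of chromosome 2 (37.5% at summits, 13.03% in flanks). It was also first among the 388 members of chromosomes 3 and 4 (36.9% and 15.3%). This split followed a look at all members and is not independent support. On chromosomes 3 and 4 its lead was narrow, with 21.52 points, against 21.39 for AAATAT and 21.26 for AAAATA. On chromosome 2 it had 24.4 points and the next word, AAAAAT, 22.5. At summits AAAAAT was more frequent than TTAAAA, at 40.7% on chromosome 2 and 39.7% on chromosomes 3 and 4. Among the 15 words made of the same letters, 4 of one and 2 of the other of A and T, TTAAAA had the highest share and the highest ratio of summit to flank (2.59). The next by share was AAATAT, at 35.0% of summits and 15.4% of flanks.

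Words without A or T did the reverse. All 36 words made only of A and T were more frequent at summits than in flanks on both sets of chromosomes, and 34 of the 36 words made only of C and G were less frequent on both. TTAAAA was also more frequent at the summit in the other classes, at 40.5% against 13.9% in flanks at divergent promoters, 24.6% against 13.5% downstream of starts and 32.1% against 11.1% at distal peaks.

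The word was more frequent in strong members. With members split into quintiles of 139 by signal, from strongest to weakest, it was found in 45.3%, 41.0%, 42.4%, 28.1% and 28.8% of summit windows. The flanks of the same quintiles stayed between 12.6% and 16.5%. By replicate summits the shares were 42.2% ± 1.17 in the strongest quintile and 29.7% ± 4.43 in the weakest (SD, n = 3 each). A/T content moved with it: the strongest quintile held 68.7% and the weakest 63.7%.

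**Figure D3:**
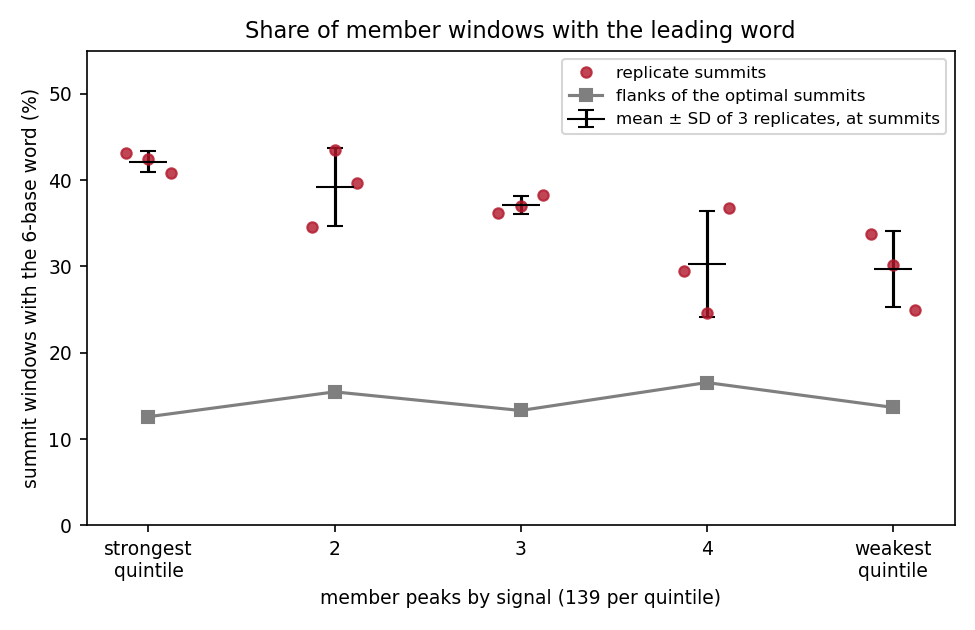
Share of member windows, 50 bp to either side of the summit, that hold TTAAAA (either strand) by quintile of member signal, at the 3 replicates' summits (red points, with mean and SD in black) and in the flanks (grey squares). The share at the summit is 42.2% in the strongest quintile and 29.7% in the weakest, and all summit values lie above the flank values.

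Members with the word had a median signal of 184.7 and members without it 154.5. The difference of median log2 signal was 0.14, 0.22 and 0.18 in replicates 1, 2 and 3 (0.18 ± 0.04, SD, n = 3, exact sign-flip permutation p = 0.25, the smallest possible, two-sided). Within members at or above the median A/T content of 68.3% the difference was 0.13 ± 0.03, and within those below it 0.06 ± 0.02 (SD, n = 3 each). The split does not make A/T content equal. In the upper group it was 74.6% with the word and 72.7% without, and in the lower group 61.6% and 57.8%. The part of A/T content in these differences was not tested. A/T content itself ranked weakly with signal (Spearman's rho 0.224 across 695 members).

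Of 30 consensus motifs searched on both strands, 13 were more frequent at member summits than in flanks in all 3 replicates, 10 were less frequent in all 3 and 7 were mixed. Among the more frequent, TATAAA was in 22.6% of summit windows and 11.8% of flanks, the A run AAAAAAA in 15.1% and 8.0%, the word TATTTAT in 12.1% and 6.76%, and the homeodomain core TAATTA in 9.93% and 5.04%. Among the less frequent, GCCGNCG, a site of the BMP mediator Mad, was in 1.44% of summits and 6.04% of flanks, and the GC box GGGCGG in 1.15% and 4.32%. The flanks differed by side. On the side away from the start TATAAA was in 15.8% of flanks, TAATTA in 6.91% and GCCGNCG in 4.17%. On the side towards the start they were in 7.77%, 3.17% and 7.91%. The DNA replication-related element TATCGATA was in 11 member summits (1.58%, flanks 0.432%). Other classes showed such excesses too. At divergent promoters TATCGATA was in 4.05% of summits and 1.07% of flanks, TATAAA in 26.9% and 8.45%, and TAATTA in 13.3% and 4.88%. At distal peaks TATCGATA was in 0.185% and 0.139%, TATAAA in 22.1% and 8.21%, and TAATTA in 9.48% and 5.06%.

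Start sites with a member differed from other one-sided start sites in the elements near the start. In the window from 250 bp before to 50 bp after the start, GAGAGAG was found at 20% of the 605 protein-coding start sites with a member and at 8.20% of the 10752 without a peak. In the replicates' own top lists the share was 20.9%, 18.7% and 18.6% (19.4% ± 1.28, SD, n = 3). The excess was greatest between 100 and 51 bp before the start, with 8.60% of member starts and 3.10% of starts without a peak. The element was less frequent at the summit itself, in 2.16% of windows. It was in 5.47% of flanks on the side away from the start and 5.32% of those on the gene side. For most members the gene-side flank was centred past the start. CAGCTG, an E-box found in core promoters, was at 20.2% of member starts and 15.4% of starts without a peak, and GCCGNCG at 17.4% and 12.1%.

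The TATA box was less frequent close to member starts. The letters TATA, then A or T, then A lay between 45 and 15 bp before the start at 4.30% of start sites with a member and at 12.6% of those without a peak (replicate lists 4.76% ± 0.54, SD, n = 3). The initiator core, written TCA, then G or T, then T, lay within 10 bp of the start at 31.1% of member starts and 20.6% of starts without a peak (30.9% ± 0.71). Farther upstream TATAAA was more frequent at member starts, at 13.4% between 200 and 151 bp before the start, against 10.01% of starts without a peak. The homeodomain core TAATTA was at 13.9% of member starts and 18.5% of the others over the whole window. From 100 bp before to 29 bp after the start, A/T content was lower at member starts (52.2% against 57.3%). From 200 bp to just over 100 bp before the start it was higher (62.8% against 61.5%). The part of A/T content in these differences was not tested. A match is a run of letters and not evidence of binding, and the genes with and without a peak were not matched for any other property.

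**Figure D4:**
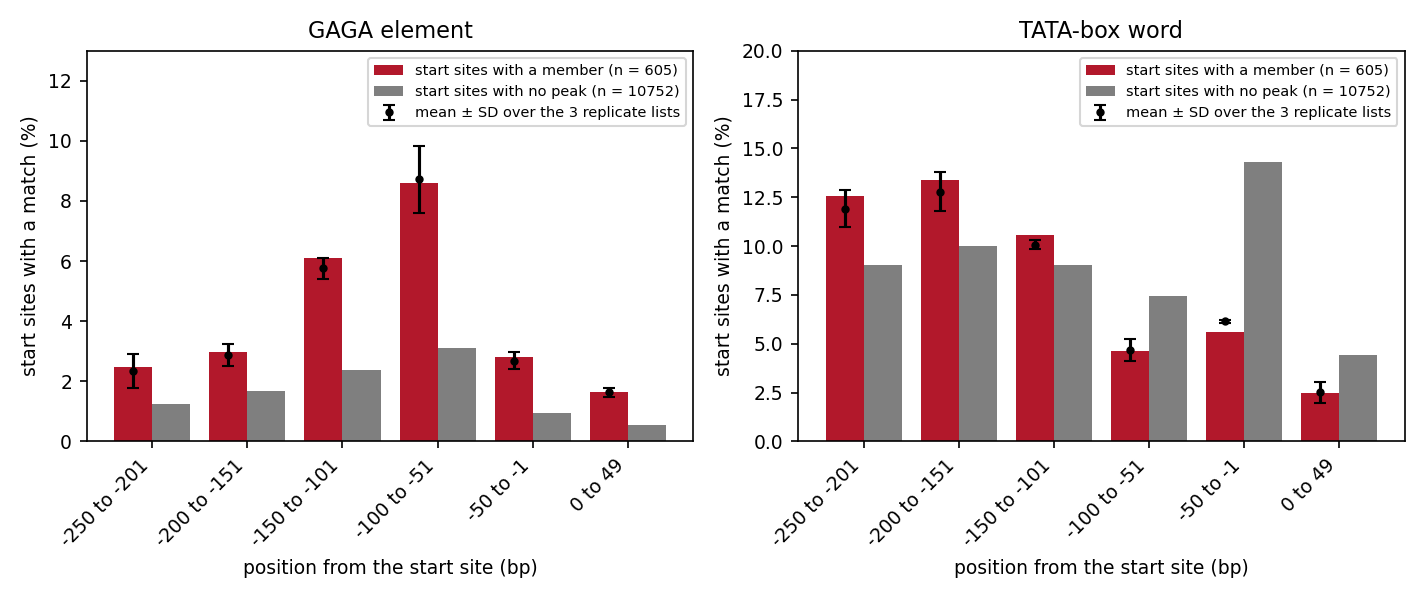
Share of protein-coding start sites with a match to GAGAGAG (left) and TATAAA (right) on either strand, in 50 bp bins from the start site, for start sites with a member (red, 605) and one-sided start sites with no peak (grey, 10752). Black points are the mean and SD over the 3 replicates' own lists. GAGAGAG is more frequent at member starts in every bin, with 8.60% against 3.10% at 100 to 51 bp before the start, and TATAAA is less frequent from 100 bp before the start onwards.

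The GAGA matches of larp and for, strong members that have one in the 150 bp before a protein-coding start, leaving out the right arm of chromosome 2 and annotated exons, are shown next. The sequences run 5′ to 3′ on the gene's strand up to the base before the start (dm6), with GAGAGAG or CTCTCTC in capitals. The name is again followed by the position and the strand.
larp, chr3R:28326265-28326414, minus strand: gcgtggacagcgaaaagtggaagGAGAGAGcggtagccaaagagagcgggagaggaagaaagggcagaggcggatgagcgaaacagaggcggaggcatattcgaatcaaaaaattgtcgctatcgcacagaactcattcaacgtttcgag
for, chr2L:3632155-3632304, minus strand: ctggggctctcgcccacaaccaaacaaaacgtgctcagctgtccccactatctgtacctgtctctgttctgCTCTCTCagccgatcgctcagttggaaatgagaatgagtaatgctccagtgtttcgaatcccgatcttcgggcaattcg

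In larp the match begins 127 bp before the start and in for 79 bp, while the summits of these members lie 332 and 342 bp before it.

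Genes were counted by function over lists of pathways and gene families. Of 8748 autosomal protein-coding genes with a one-sided start site, 602 (6.88%) had a member at such a start, and in the replicates' own lists 7.14% ± 0.28 (SD, n = 3). Per protein-coding start site it was 605 of 11756 (5.15%). Genes of every type gave 660 of 11714 (5.63%). Genes with many start sites have more chances, so both shares are given for the lists that stood highest by gene. Per start site the order differed, with cell death (21.4%) and the EGF receptor pathway (20.8%) highest.

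Cytoplasmic ribosomal protein genes had a member in 13 of 46 cases (28.3%, replicates 29.7% ± 5.02, SD, n = 3), and at 18.8% of their start sites. RpL23A had the highest signal, 211 in the optimal list and 58.3, 65.7 and 82.7 in replicates 1, 2 and 3. RpL24 had 210.5 and RpS3A, on chromosome 4, 183. The lowest was RpL10Ab with 107, among the top peaks of 2 replicates. These members lay close to the start. Their summits were 8 to 113 bp upstream with a median of 40 bp, against 202 bp in all other members. The replicates' own summits gave medians of 29, 61 and 80 bp for the ribosomal protein members and 199.0, 203 and 203 bp for the others. Their windows were 54.3% A or T, and those of other members 66.4%.

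Ecdysone response genes had a member in 8 of 21 cases (38.1%, replicates 33.3% ± 4.76, SD, n = 3). They have many promoters, and at 9 of their 54 start sites (16.7%) a member was found. Sox14 led with 179, 393 and 223 in replicates 1, 2 and 3. E23, an ABC transporter gene, had 2 overlapping members of 497 and 293. Eip75B, which encodes a nuclear receptor, had a member of 337 at 2 bp from an internal start and another of 145 at 499 bp from a different start. The first was placed upstream by the pooled summit, and its own summits lay 44 and 39 bp downstream of the start in replicates 1 and 2 and upstream of it in replicate 3. vri (154), Eip93F (131), EcR (109), Eip74EF (104.5) and ImpE3 (103.9) had weaker ones. EcR encodes the ecdysone receptor, and its member lay among the top peaks of 1 replicate, with 16.7, 37.1 and 55.4 in replicates 1, 2 and 3.

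Genes of the insulin and TOR pathways, which tie growth to nutrition, had a member in 7 of 21 cases (33.3%, replicates 30.2% ± 7.27, SD, n = 3) and at 18.9% of start sites. Sesn, which encodes sestrin, an inhibitor of TOR signalling, had 623 in the optimal list and 136, 285 and 204 by replicate. REPTOR, a transcription factor held back by TOR, had 482 in the optimal list and 137, 207 and 142 by replicate. Then came melt (306), Pi3K21B, the adaptor of the PI 3-kinase (270.1), foxo, the transcription factor that insulin signalling restrains (148), and the insulin receptor gene InR (123). Both foxo and InR lay among the top peaks of 2 replicates only.

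Genes of the EGF receptor pathway had a member in 4 of 16 cases (replicates 27.1% ± 3.61, SD, n = 3) and at 5 of 24 start sites. These were the ligand gene spi, aos, which encodes a secreted inhibitor of the receptor (205), and the transcription factor genes pnt (126) and aop (107). Heat shock genes had one in 5 of 22 cases (22.7% in each replicate as well), and at 16.1% of start sites, namely Hsp27, Hsp83 (333), Hsp26 (237), Hsp22 (137) and stv (109.7). Cell death genes had one in 3 of 11 and at 3 of 14 start sites, namely the death inducer hid (379), BI-1 (174) and the caspase inhibitor gene Diap1 (106). The hid member had 93.1 and 106.4 in replicates 1 and 3 and was not listed in replicate 2.

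Patterning factors had a member in 5 of 26 cases, with Doc3, tin (277) and fkh (141) highest. Cell cycle genes had one in 3 of 16, with Dp (451), CycE (239.9) and Cdk12 (101.4). Translation factors had one in 4 of 32, led by eEF1gamma (337), and mitochondrial ribosomal proteins in 2 of 16, mRpL41 and mRpL4 (103.8). Rab GTPases (Rab5, 251.2, and Rab1, 112) and genes of the Wingless pathway (gish and nkd, 174) had 2 members each, of 14 and 16 genes. The BMP and activin pathways had 2 of 15, shn (142) and tkv (96.1). Single members were found for 9 autophagy genes (Atg13, with 2 peaks), 14 aminoacyl-tRNA synthetase genes (beta-PheRS), 11 insulator and promoter factors (row, 240.0), 8 splicing factors (Sf3b3, 100.2) and 6 GATA factors and cofactors (grn, 91.6). For patterning factors the Wilson interval was 8.51 to 37.9, and the replicates' own lists gave 12.8% ± 4.44 (SD, n = 3). In every other list of this paragraph the Wilson interval reaches the share over all genes (6.88%). Those counts are therefore not read as an excess.

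In other lists the share was below that over all genes (6.88%), with 95% Wilson intervals that reach it in each list but the chemoreceptor and cuticle protein genes. None of 145 chemoreceptor genes had one, which allows a share of up to 2.07%, and none of 109 cuticle protein genes, which allows up to 2.75%. In the replicates' own lists the shares were 0.23% ± 0.398 and 0.917% ± 0.917 (SD, n = 3 each). Cytochrome P450 genes had a member in 2 of 71 cases, Cyp310a1 (237) and Cyp6a16 (96.0), oxidative phosphorylation genes in 1 of 48 (blw, 237), and odorant-binding protein genes in 2 of 36 (Obp83g, 173, and Obp99b, 165), a share of 5.56% with a 95% Wilson interval of 1.54 to 18.1. Proteasome genes had 1 of 22 (Rpn11, 99.5; 4.55%, interval 0.807 to 21.8) and vacuolar ATPase genes 1 of 21 (Vha13, 87.6; 4.76%, interval 0.846 to 22.7). The members of Cyp6a16, Rpn11 and Vha13 lay among the top peaks of 1 replicate. In the own lists of replicates 1 and 2 the proteasome and vacuolar ATPase shares were 0%. No member lay beside 8 Hox genes, 5 salivary glue and 71E genes, 4 JAK/STAT genes, 2 Brahma complex genes or 1 gene of the Myc and Max network. These lists are too short for a limit to be informative.

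**Figure D5:**
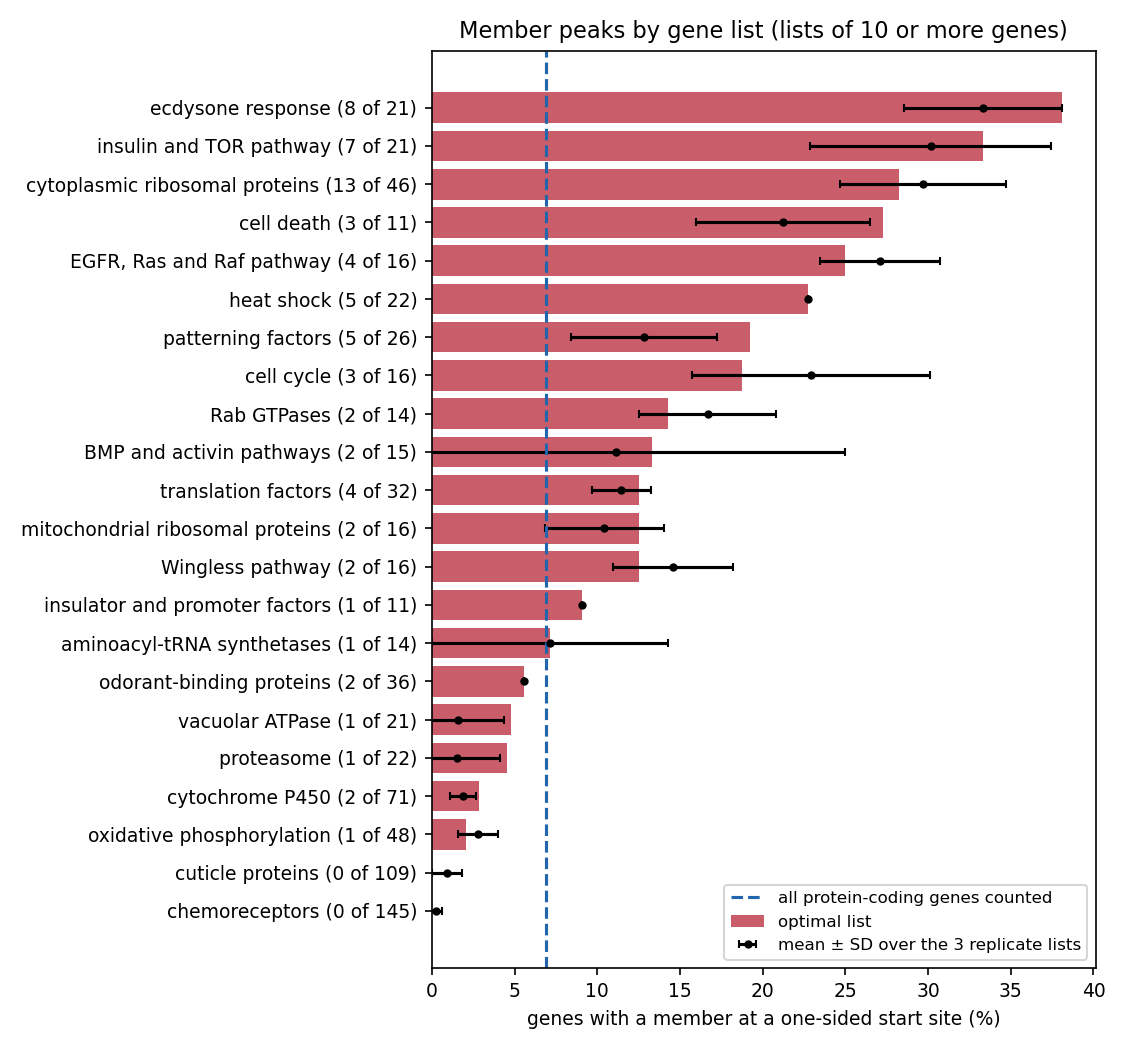
Share of genes with a member at a one-sided start site, for the gene lists with 10 or more such genes (bars, optimal list; black points, mean and SD over the 3 replicates' own lists). The dashed line is the share over all 8748 protein-coding genes counted, 6.88%. The ecdysone, insulin and TOR, and ribosomal protein lists stand highest, and the chemoreceptor and cuticle protein lists are at 0 in the optimal list.

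At the edges of the rule, the members farthest from their start were those of Pino (500 bp, signal 218), Eip75B (499 bp, 145) and the long non-coding RNA CR46445 (497 bp, 90.2). The upstream peaks just outside the limit were those of by (503 bp, 193), Sema5c (504 bp, 96.9) and stv (505 bp, 276). The members with the nearest opposite-strand start were those of CG46385 (502 bp), RpL10Ab (508 bp) and Nepl19 (509 bp). Just outside were CG2246 (498 bp), Ugt50B3 (486 bp) and Coop (486 bp). Opposite-strand starts were on the whole far away, at a median of 3943 bp, and 106 members had one over 500 and up to 1000 bp away.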

How the data were processed

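The authors deposited peak lists from anti-GFP ChIP-seq in 3 biological replicates of whole prepupae. Each list gives the position, the signal value and the summit of every peak. The signal column was made by the authors with their peak caller, on a scale of its own in each list. Per the deposited text notes, each replicate list and the pooled list were called against a control, and the optimal list was derived from them by the irreproducible discovery rate. Per the labels, chromatin was sonicated to 200 to 800 bp. Aligner, caller, versions and cutoff: not given in the sources used here. Depth is unknown, so no interval that needs it is given. Wilson and floor values cover counting over peaks or genes only, with a floor of 3.

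The dm6 lists were used: the optimal list (4410 peaks), the pooled list and the replicate lists (30000 peaks each). The dm3 lists were not used. Start sites came from the Ensembl BDGP6 annotation (release 115, dm6 coordinates) without transposable elements, and sequence from the RefSeq genome of that assembly. Positions count from 1. Of 19677 autosomal start sites, 14775 had no opposite-strand start within 500 bp, and gene counts add genes whose start was chosen through a member's summit. Where 2 start sites were equally near, the one the summit was upstream of was taken. Replicates were compared by their 4410 strongest peaks, with an overlap of 1 bp counted as shared. The member's own summit in a replicate was that of the overlapping peak of highest signal there.

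Differences are given per replicate with the mean and SD, and two-sided exact sign-flip permutation tests over the 3 replicates. The labels call the replicates biological, and all are of the same line. Words of 6 bases were ranked by the share of windows at the summit minus the share in flanks. Of 346 gene symbols in the lists, 324 matched the annotation, and 33 patterns took further genes. The steps were tested on simulated peaks with known classes. Python 3.11.15, pandas 2.3.3, numpy 2.4.6, scipy 1.17.1 and matplotlib 3.10.9 were used.

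Members, lists, motifs and windows were chosen with earlier results of these data known. The genes named are the 25 members of highest signal found in all 3 replicates, the members of highest signal of each gene list, genes with 3 or more members, and those at the edges of the rule; members beyond 3 per list were named after their values were seen. TTAAAA, words of its letters, the quintiles of members, the core promoter windows, the start-site comparison, the contrasts within members and the ribosomal protein distances were chosen after seeing the data. So was the correction of 4 lists: phenylalanine synthetases were added, accessory gland proteins and wdb removed and activin genes named in a list's title. A list of zinc finger genes was dropped because its membership could not be checked. The split between chromosomes followed a look at all members, so it is not independent support. Single genes and sequences are not reported here although the rules for naming would take them.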

Additional observations from a re-analysis of the deposited data

How the results depend on the processing

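Alternatives changed one choice at a time. The mean share of autosomal peaks meeting the rule in the replicates' own top lists is called the member share here. The member share (20.3%) was 17.95% with a limit of 300 bp and 21.8% with 1000 bp. In the 50% of optimal peaks with the highest signal it was 23.02%. The share of members found in all 3 replicates (73.4%) was 69.8% at 300 bp, 97.4% in the stronger 50%, 67.1% when 50% of the member had to overlap and 45.6% with top lists 50% as long. Leaving out members that overlap another, an alternative chosen after seeing the data, gave 71.02%. The median distance (199.2 bp) was 159.7 bp at 300 bp and 259 bp at 1000 bp, which follows from the limit itself. The A/T rise (9.92 points) was 8.94 at 300 bp, 11.97 in the stronger 50% and 8.14 with windows of 100 bp to either side. The count of protein-coding genes (602) was 370 in the stronger 50%, which holds fewer peaks. Apart from these effects of fewer peaks and other limits, the cause of each shift was not tested.

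The log2 signal of members minus divergent promoter peaks (0.04) turned to -0.0899 at 300 bp, -0.0031 in the stronger 50% and -0.0137 without replicate 1, and ranged from -0.01 to 0.11 with a replicate left out. The cause was not tested. Members minus other autosomal peaks (0.25) kept its sign in all 7 alternatives, and ranged from 0.24 to 0.26 with a replicate left out. With a replicate left out the member share ranged from 19.7% to 20.7%, the median distance from 198 to 200.5 bp, the A/T rise from 9.70 to 10.3 points, and the motifs more frequent at summits from 13 to 15. With start sites of protein-coding genes alone the member share, both signal differences, the share found in all 3 replicates, the median distance and the A/T rise moved by less than the replicate spread or interval, and the motif count was not recomputed.

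No paired analysis was possible because there is 1 group of samples. The limits are those of peak lists from 1 transgenic line: no untagged sample was analysed here, read depth is unknown, 3 replicates cannot give a p under 0.25, and assignment to a gene rests on the nearest annotated start site.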
